A study of Gallus gallus with 60 samples.

Results

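The 203 predicted miRNAs were the rows of the stage table whose name begins with new-gga-miRNA-, out of 890 miRNAs in that table, the other 687 being known chicken miRNAs with a gga- name. They were followed through 45 Tibetan chicken samples, from the whole embryo to pectoral muscle of birds of up to 12 years. The choice used the names alone and no measured value, but it was made with earlier results of these data known.

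miRNAs are short RNAs that an enzyme, Dicer, cuts from the hairpin of a longer transcript, and that guide silencing complexes to partly matching mRNAs, whose translation and stability fall. In skeletal muscle a few families such as miR-1, miR-133 and miR-206 are well studied in myoblast proliferation and differentiation. A predicted miRNA is a genomic hairpin with a read pattern that looks like Dicer processing but with no entry in the miRNA catalogue at that release. For these rows no role, target, sequence or genome position was analysed here, so each is described by its level alone.

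Small RNA was sequenced in 15 stages with 3 samples each. E5 and E7, embryonic days 5 and 7, are labelled pectoral muscle but were whole embryos by the methods of the study. Pectoral muscle was taken at E9 and E12 (the early-embryonic period, Pre_E, 6 samples), at E15, E18, E20 and D1, the first day after hatching (the late embryonic period, Lat_E, 12 samples), and at D36, D100 and D300 and at Y3, Y5, Y8 and Y12 (the postnatal period, Bir_G, 21 samples, D for days and Y for years). All birds were Tibetan chickens with no treatment in the labels, collected in triplicate, Y3 is named as in the labels although the methods give year 2, and no label says which sample is which bird. The study set the 3 muscle periods by clustering these same samples, so a difference between periods is not independent evidence that the periods differ.

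The deposited values, called TPM, were reads scaled to a library total, with no length correction. Reads were recovered in 41 of the 45 samples, where library totals were 9347754 to 13010995 reads (median 10499106). In these samples 3 reads, taken as the smallest detectable amount, were 0.231 to 0.321 TPM. The values of a sample summed to between 294507 TPM in D1 replicate 1 and 875328 TPM in D300, so the share of the library outside the listed miRNAs differed between samples. The skeletal muscle list of 7 miRNAs had sums of 2227 to 4453 TPM in embryos. In muscle its sums were 8901 to 78548 TPM at Pre_E, 74038 to 231773 TPM at Lat_E and 225098 to 413315 TPM at Bir_G. Nearly all of it was gga-miR-133a-3p (median 311500 TPM in Bir_G), while gga-miR-206 had medians of 236 TPM in Lat_E and 0.387 TPM in Bir_G and gga-miR-499-5p of 512 and 63.5 TPM. In the 6 samples labelled muscle at E5 and E7 the 3 neural miRNAs summed to 11813 to 19310 TPM, against 94.4 to 2976 TPM in Pre_E. The 4 epithelial miRNAs had median sums of 20056 TPM in embryos, 29729 TPM at Pre_E, 444 TPM at Lat_E and 124 TPM at Bir_G, with 1429 to 57468 TPM within Pre_E. Most of these sums was gga-miR-205a (medians 18938 and 28617 TPM in embryos and Pre_E), and the other 3 had lower medians in Pre_E than in embryos. The 3 white blood cell miRNAs in the table summed to 59.2 to 278 TPM in Lat_E and 1721 to 9073 TPM in Bir_G, and the 2 red blood cell miRNAs had medians of 13.2 and 419.9 TPM. The part of these cells in the results below was not tested. D1 replicate 1 stood apart, with the lowest sum and the most abundant predicted miRNA listed at 0, so results that rest on it are given without it.

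All 203 predicted miRNAs were above 0 in at least 1 of the 45 samples, but most were rare. A value of 1 TPM was reached by 180 of them, 10 TPM by 48 and 100 TPM by 18. Only 17 were listed in every sample, and 11 were listed in 1 sample alone. The median of their means over the 45 samples was 0.308 TPM, against 0.450 TPM for the known miRNAs.

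Fewer predicted miRNAs were listed per sample in later stages up to D1, and not after it. The number above 0 was 107, 106 and 102 in the E5 samples and 107, 113 and 104 in the E7 samples. It was 80 to 104 in Pre_E (median 88), 37 to 81 in Lat_E (median 71.5) and 42 to 68 in Bir_G (median 53). The D1 samples had 58, 63 and 37, the D36 samples 46, 42 and 55, the D300 samples 57, 68 and 60 and the Y12 samples 57, 53 and 51. The embryo samples lay above all muscle samples but E12 replicate 1, with 104. Of the known miRNAs 459 to 490 were listed per embryo sample, 310, 312 and 265 in the D1 samples and 300 to 333 per Bir_G sample.

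Their part of the summed TPM did not fall with their number. Embryos had 2.77% to 3.49%, Pre_E samples 2.35% to 4.26%, Lat_E samples 3.87% to 6.12% and Bir_G samples 3.08% to 9.20%, so the muscle periods overlapped. Much of this share was 1 row, since new-gga-miRNA-1 made up 60.6% of the mean predicted signal and the first 12 rows made up 98.2%. Without new-gga-miRNA-1 the predicted miRNAs summed to 8772 to 17518 TPM in Lat_E and 8019 to 14262 TPM in Bir_G.

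**Figure D1:**
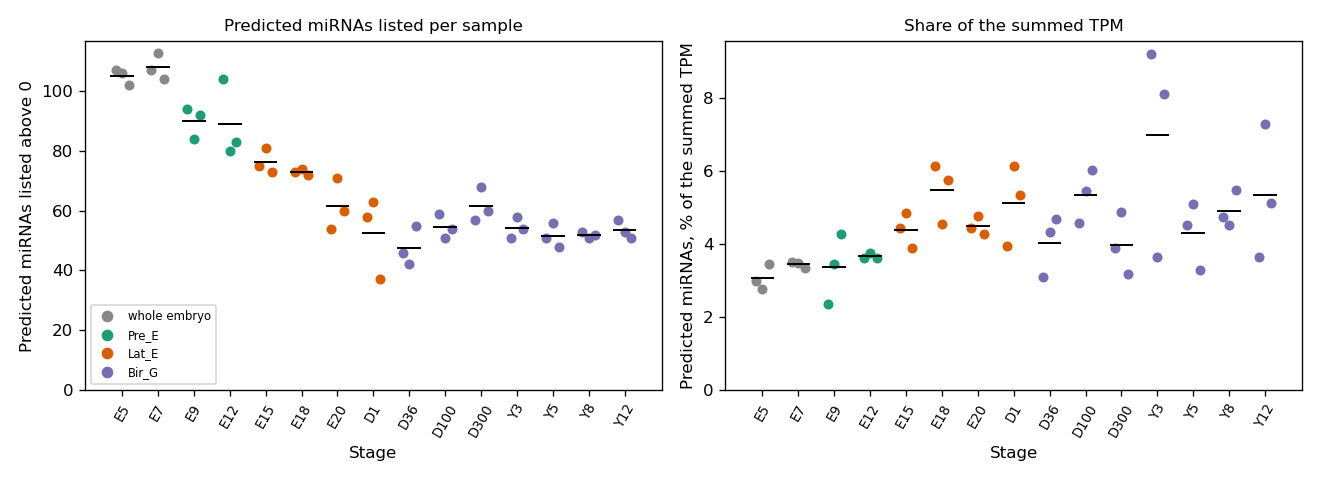
Left, the number of predicted miRNAs above 0 in each sample by stage; right, their share of the summed TPM in percent. Points are samples, coloured by period, and bars are the mean of 3 samples; the number listed was 102 to 113 in the embryos and 42 to 68 in Bir_G, while the share ranged from 3.08% to 9.20% in Bir_G.

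The stage with the highest mean was a whole-embryo stage for 75 of the 203 predicted miRNAs, a Pre_E stage for 41, a Lat_E stage for 34 and a Bir_G stage for 53. Among the known miRNAs these shares were 49.3%, 18.0%, 8.01% and 24.6%, against 36.9%, 20.2%, 16.7% and 26.1% of the predicted ones. Of the 48 that reached 10 TPM, 9 had their highest mean in the embryos, 11 in Pre_E, 12 in Lat_E and 16 in Bir_G.

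The most abundant predicted miRNA was new-gga-miRNA-1, with a mean of 17214 TPM over the 45 samples and rank 7 among all 890 rows. It ranged from 5152 to 10455 TPM in the embryos (median 7026), from 6022 to 15798 TPM in Pre_E (median 7903) and from 12965 to 55798 TPM in Bir_G (median 25870). In Lat_E it was 0 in D1 replicate 1 and 3817 to 15005 TPM in the other samples. Its highest stage was Y3, with 55798, 17840 and 42794 TPM, and its lowest was E5, with 6587, 5152 and 6811 TPM. With the 15 stages ordered by their means, each overlapped in its samples with the next in that order. In order of age some neighbouring stages did not overlap, such as D1 (highest 15005 TPM) and D36 (lowest 15579 TPM).

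Next came new-gga-miRNA-2 and new-gga-miRNA-3, which were listed in all 45 samples and had their lowest medians in the embryos, at 567 and 572 TPM. At E9, new-gga-miRNA-2 was at 1183, 769 and 1100 TPM, and at E12 at 3806, 2477 and 2467 TPM. From there on only D1 replicate 1, at 1975 TPM, was below the lowest E12 sample, and the Bir_G range was 3288 to 6065 TPM. Levels of new-gga-miRNA-3 at E9 were 1280, 379 and 665 TPM and at E12 4193, 2371 and 2550 TPM. It was highest in Lat_E (2539 to 7639 TPM, median 4582) and lower in Bir_G (1832 to 4949 TPM, median 2531), where these ranges overlapped.

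Abundant early and low later were new-gga-miRNA-4 and new-gga-miRNA-5. For new-gga-miRNA-4 the embryos had 1799 to 4796 TPM, Pre_E 789 to 5027 TPM, Lat_E 545 to 1263 TPM and Bir_G 309 to 1054 TPM. new-gga-miRNA-5 was at 1819, 1694 and 1772 TPM at E5 and at 3703, 2450 and 4111 TPM at E7, and had a median of 83.1 TPM in Bir_G. Its samples spread widely at some stages, with 0.865, 120.2 and 197 TPM at D1, with 53.6, 0 and 55.3 TPM at D100, and with 539.9, 70.5 and 77.4 TPM at D300. Over the samples new-gga-miRNA-188 ranged from 204 to 2891 TPM and was highest at D1, where it was at 777, 2891 and 2844 TPM.

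**Figure D2:**
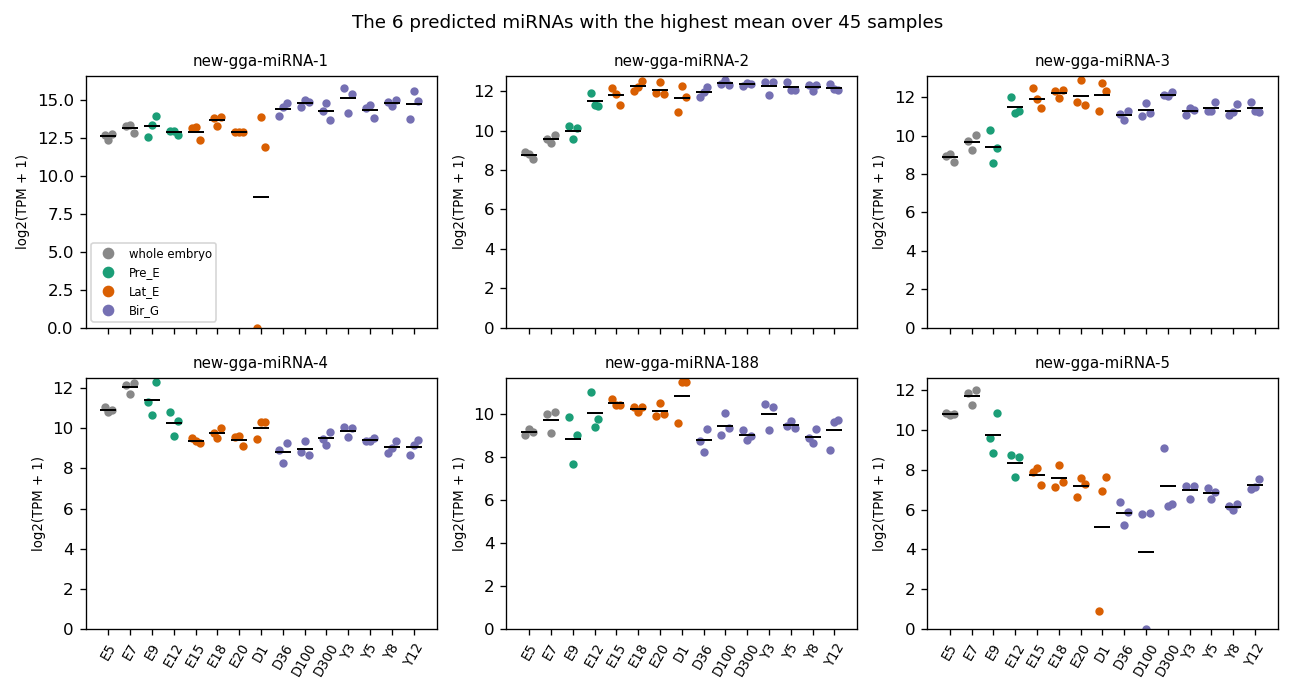
Levels of the 6 predicted miRNAs with the highest means, as log2(TPM + 1) for each sample by stage. Points are samples coloured by period and bars are means of 3 samples; new-gga-miRNA-1 had its highest stage mean at Y3 and is at 0 in 1 D1 sample, while new-gga-miRNA-4 and new-gga-miRNA-5 were highest at E7.

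Periods were compared with limma on log2(TPM + 1). A miRNA was called at a Benjamini-Hochberg adjusted p of at most 0.05 over all miRNAs above 0 in at least 1 sample compared, with a change of at least 2-fold, and fold changes below are on this scale, later group minus earlier group, with the standard error (SE). The scale understates the change of low miRNAs, and for rows listed at 0 in many samples the fitted change depends on the added 1. Since replicates have no stated source, the p-values measure the spread between these samples. Samples of different stages were pooled within a period. With stage means as units, 16 of 32 period calls of the rows named were no longer called.

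From Pre_E to Lat_E, 8 of the 161 predicted miRNAs tested rose and 17 fell. Over all 760 miRNAs tested, 2.11% were higher and 17.2% lower in Lat_E. Among the predicted these shares were 4.97% and 10.6%. Among the 179 miRNAs averaging 10 TPM or more the median change was -0.84. When values were centred on the median miRNA 33 predicted miRNAs were called higher and 0 lower, and 96 and 28 of all 760. Centring takes the sample's median off every row, also rows at or near 0, which then move the opposite way by construction. Of the 203 predicted rows 144 averaged under 1 TPM. The split depends on the scaling, but counts after centring, here and below, cannot show the direction of such rare rows. Rescaling without gga-miR-133a-3p, an abundant muscle miRNA, gave 11 higher and 4 lower (35 and 51 of all miRNAs). It divided by the sum of the other listed miRNAs, which also takes out the share of the library outside them. edgeR on the recovered reads gave 10 higher and 13 lower (39 and 80 of all 744 tested).

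The rises of new-gga-miRNA-2 (log2 fold change 1.21, SE 0.30, adjusted p = 0.00446 by limma) and new-gga-miRNA-3 (1.63, SE 0.41, adjusted p = 0.00466 by limma) followed the step between E9 and E12 described above. Without replicate 2 of each stage neither passed, at adjusted p-values of 0.0744 and 0.0596 by limma. Both E9 and E12 lie within Pre_E, and from E12 to E15 neither row was called (0.31, SE 0.25, and 0.42, SE 0.36). For new-gga-miRNA-11, Pre_E samples were at 11.9 to 32.6 TPM (median 26.1) and Lat_E samples at 33.5 to 86.8 TPM (median 53.2). The groups did not overlap, and the change was 1.14 (SE 0.23, adjusted p = 0.00102 by limma), just under 2-fold without replicate 2 (0.99) or replicate 3 (0.97). The number 11 is also that of a predicted miRNA in the study's q-PCR primer list, as is 15 below, and whether the names mean the same rows was not tested. The study reported that its q-PCR of selected miRNAs, predicted ones among them, fully matched the sequencing. Those q-PCR values were not used here.

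Among the called falls were new-gga-miRNA-13, new-gga-miRNA-50, new-gga-miRNA-51 and new-gga-miRNA-24. new-gga-miRNA-13 went from 88.4 to 255 TPM in Pre_E to 23.3 to 116 TPM in Lat_E, which overlap. The fall of new-gga-miRNA-50, from 2.09 to 12.3 TPM to at most 5.63 TPM, and that of new-gga-miRNA-51, from 3.24 to 10.2 TPM to at most 8.92 TPM, left both at no more than 1.94 TPM from E18 on. new-gga-miRNA-24 was above 0 in 6 of the 45 samples. Leaving out 1 replicate number in turn took the adjusted p above the limit in limma for new-gga-miRNA-24 (0.269 at the highest), new-gga-miRNA-50 (0.0648) and new-gga-miRNA-51 (0.0716). After centring on the median miRNA none of these 4 was called, at changes of -0.52, -0.89 and -0.57 for new-gga-miRNA-13, new-gga-miRNA-50 and new-gga-miRNA-51. new-gga-miRNA-189 was called higher, but it was at 0 in 5 of 6 Pre_E and 3 of 12 Lat_E samples, and without D1 replicate 1 its adjusted p was 0.0655 by limma.

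From Lat_E to Bir_G, 15 of 167 predicted miRNAs tested rose and 19 fell, or 8.98% and 11.4%. Over all 731 miRNAs tested 13.8% were higher and 14.0% lower. edgeR gave 50 higher and 81 lower (203 and 282 of all 729 tested), and rescaling without gga-miR-133a-3p 14 and 29 (84 and 135 of all). Here the median change of the 186 miRNAs of at least 10 TPM was 0.26, and centring on the median miRNA gave 14 predicted miRNAs higher and 30 lower (89 and 129 of all).

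The sharpest rise was that of new-gga-miRNA-6. It was at 6.24, 8.08 and 5.08 TPM at D1 and at 439.6, 421 and 449.9 TPM at D36. All 24 samples before D36 were at 3.70 to 17.0 TPM and all 21 from D36 on at 197 to 949 TPM, with no sample between. The change from Lat_E was 5.88 (SE 0.19, adjusted p = 2.44e-23 by limma). Within Bir_G each stage mean overlapped in its samples with the next in order, from 346 TPM at Y5 to 730.2 TPM at D300.

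new-gga-miRNA-1 rose by 1.53 on the log2 scale without D1 replicate 1, where it was listed at 0 (adjusted p = 2.23e-07 by limma, or 0.00709 with that sample). new-gga-miRNA-8 rose by 2.33 (SE 0.30, adjusted p = 3.05e-08 by limma) from 33.3 to 318 TPM to 159.6 to 1247 TPM, with an overlap. new-gga-miRNA-11 rose by a further 1.95 (SE 0.16, adjusted p = 9.79e-13 by limma) to 121 to 326 TPM, above every earlier sample. new-gga-miRNA-29 was above 0 in 1 of 12 Lat_E samples, at 0.286 TPM, and in 20 of 21 Bir_G samples, at a median of 10.5 TPM and up to 15.6 TPM.

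Both new-gga-miRNA-15 and new-gga-miRNA-17 fell between D1 and D36, by less than new-gga-miRNA-6 rose. The changes were -2.79 for new-gga-miRNA-15 and -2.83 for new-gga-miRNA-17, against 5.89 for new-gga-miRNA-6. A larger fall was fitted for new-gga-miRNA-189 (-6.72, SE 2.26), which was not called without D1 replicate 1, as given below. new-gga-miRNA-17 was also called lower from E20 to D1 (-1.08, SE 0.33). At D1, new-gga-miRNA-15 was at 37.2, 42.9 and 42.1 TPM, and at D36 at 4.70, 5.50 and 4.95 TPM. Its 12 Lat_E samples were at 37.2 to 115 TPM and its 21 Bir_G samples at 3.77 to 17.7 TPM, without overlap, a change of -3.05 (SE 0.18, adjusted p = 3.79e-16 by limma). For new-gga-miRNA-17 the Lat_E samples were at 10.5 to 82.4 TPM and the Bir_G samples at 2.12 to 9.42 TPM, a change of -3.20 (SE 0.20, adjusted p = 1.34e-15 by limma). In new-gga-miRNA-32 the Lat_E range was 1.88 to 8.30 TPM, and in Bir_G 13 of 21 samples were at 0 with a highest value of 1.61 TPM.

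From Pre_E to Bir_G, 14 of 180 predicted miRNAs tested rose and 44 fell, or 7.78% and 24.4%. Over all 785 miRNAs 11.5% were higher and 24.6% lower. The median change of the 195 miRNAs of at least 10 TPM was -0.61, and edgeR gave 43 higher and 88 lower (157 and 354 of all 767 tested), while centring on the median miRNA gave 28 predicted miRNAs higher and 25 lower (123 and 143 of all). This comparison shares its samples with the other period comparisons, so the values are set side by side. new-gga-miRNA-6 changed by 5.37 (SE 0.27), new-gga-miRNA-8 by 3.36 (SE 0.36), new-gga-miRNA-11 by 3.08 (SE 0.20), new-gga-miRNA-17 by -3.20 (SE 0.21), new-gga-miRNA-32 by -2.91 (SE 0.26) and new-gga-miRNA-15 by -2.88 (SE 0.26). In each of these 6 the Pre_E and Bir_G samples did not overlap. Other called rows, such as new-gga-miRNA-13 and new-gga-miRNA-51, also had no overlap. The 2 groups did overlap in new-gga-miRNA-16 (-3.67, SE 0.76), new-gga-miRNA-29 (3.27, SE 0.35) and new-gga-miRNA-21 (3.14, SE 0.99), also among the largest changes. The share of all miRNAs without overlap was not counted.

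Of the 70 predicted miRNAs called in at least 1 of the 3 muscle comparisons, 4 were called in all of them. These are 37.8% and 2.16% of the 185 tested, against 39.6% and 7.11% over all 816 miRNAs. new-gga-miRNA-8 and new-gga-miRNA-11 were higher each time, and new-gga-miRNA-36 and new-gga-miRNA-51 lower each time. 3 rows, new-gga-miRNA-43, new-gga-miRNA-130 and new-gga-miRNA-189, were called higher in Lat_E than in Pre_E and lower in Bir_G than in Lat_E. No predicted row was called in the opposite order. These patterns were not counted over all miRNAs, so they are not read as a trait of the predicted rows.

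**Figure D3:**
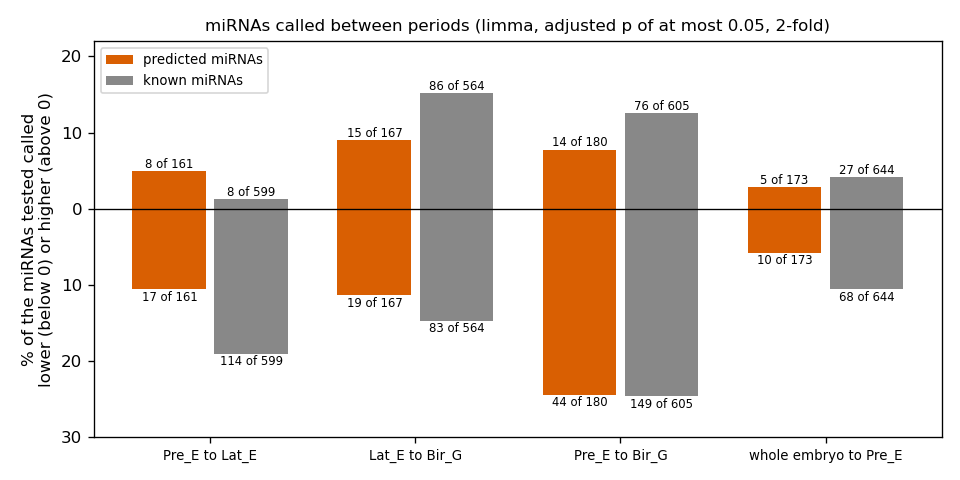
Share of the miRNAs tested that were called higher (above 0) or lower (below 0) in the later group of each comparison, in percent, for predicted and known miRNAs, with the counts at the bars. From Pre_E to Lat_E 8 of 161 predicted miRNAs were higher and 17 lower. These values are scaled to the library total. Centring on the median miRNA, which also moves rows near 0, changed this split to 33 and 0, and that of all miRNAs to 96 and 28.

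**Figure D4:**
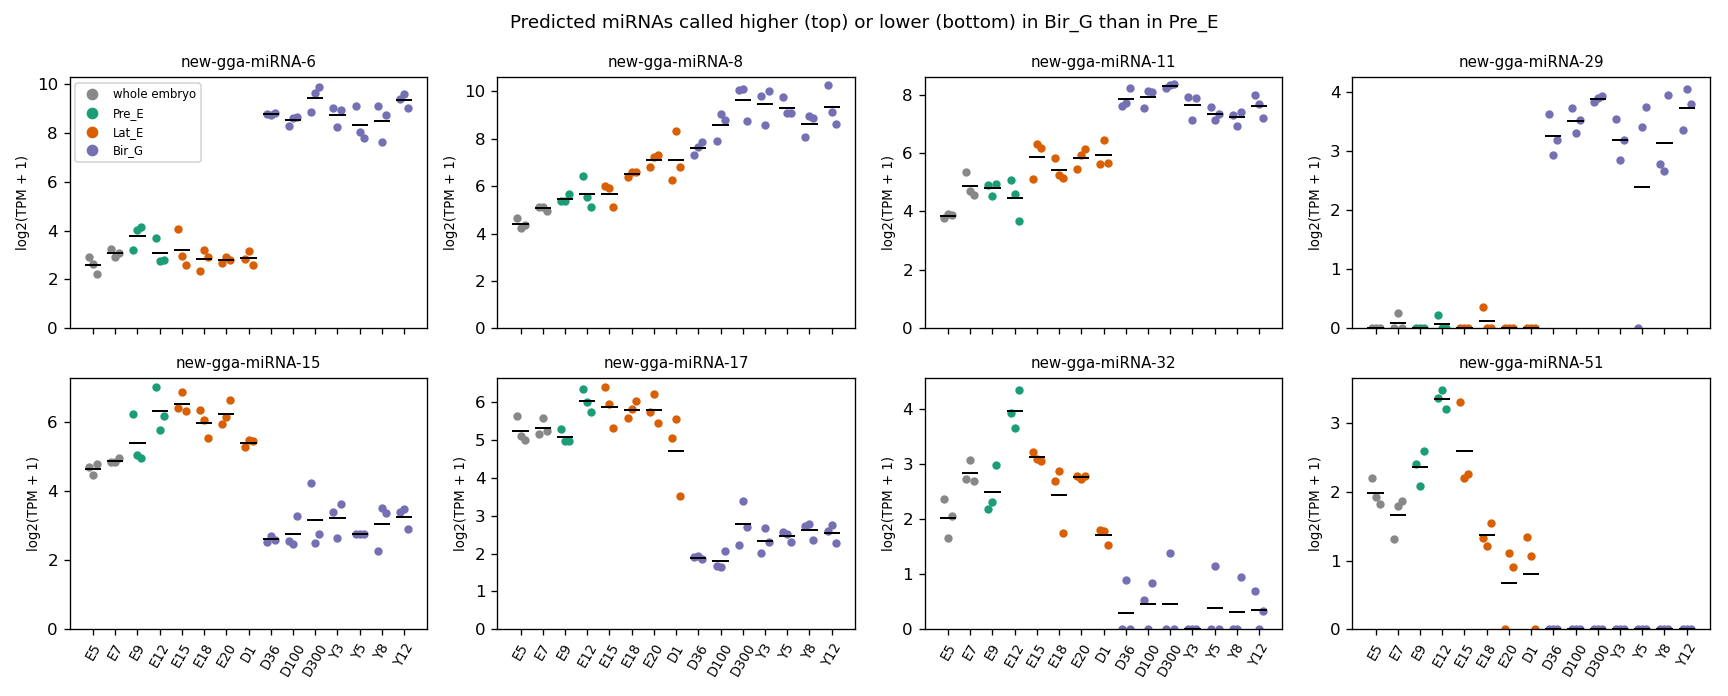
Levels of 8 predicted miRNAs as log2(TPM + 1) for each sample by stage, with bars at the means of 3 samples. new-gga-miRNA-6 and new-gga-miRNA-29 step up at D36, new-gga-miRNA-15 and new-gga-miRNA-17 step down at D36, and new-gga-miRNA-8 climbs over many stages.

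From the whole embryo to Pre_E muscle, tissue and age change together and cannot be told apart. Of 173 predicted miRNAs tested, 5 rose and 10 fell, while over all 817 miRNAs tested 3.92% were higher and 9.55% lower. edgeR on the recovered reads called 12 higher and 10 lower (54 and 80 of all 799 tested). With stage means as the units, 2 stages against 2, limma called 0 predicted miRNAs, with 28 at an unadjusted p under 0.05.

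The row that fell most was new-gga-miRNA-23, at 90.8, 98.6 and 95.4 TPM at E5 and 61.0, 33.1 and 35.4 TPM at E7. All 6 Pre_E samples were at 1.22 to 3.63 TPM, a change of -4.52 (SE 0.31, adjusted p = 2.03e-06 by limma), and it stayed at or under 6.80 TPM in all later muscle. new-gga-miRNA-20 went from 15.2 to 49.3 TPM to 2.61 to 10.4 TPM, without overlap (-2.32, SE 0.32, adjusted p = 0.000363 by limma), and was again at up to 32.1 TPM in Bir_G. new-gga-miRNA-5 fell by 2.20 (SE 0.46, adjusted p = 0.00561 by limma), with a Pre_E range of 200.3 to 1811 TPM that reached into the embryo range, and new-gga-miRNA-39 was at 4.16 to 9.14 TPM in the embryos and at 0 in 3 of the 6 Pre_E samples. Among the rises, new-gga-miRNA-19 went from 6.96 to 12.0 TPM to 24.5 to 48.2 TPM, without overlap (1.55, SE 0.19, adjusted p = 0.000138 by limma). new-gga-miRNA-2, new-gga-miRNA-7 and new-gga-miRNA-15 were called higher with overlapping ranges, at 1.57, 1.24 and 1.10, and new-gga-miRNA-51 at 1.04. Without replicate 1, 2 or 3 of each stage the number of predicted miRNAs called was 9, 6 and 8. Counts over all miRNAs are not given for this setting or for stage means.

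Between adjacent stages, 69 predicted miRNAs were called in at least 1 of 13 pairs, in a fit over all 15 stages, with 101 calls in all. They are 34.0% of the 203, and over all miRNAs 35.7% were called in at least 1 pair. Fits of only the 2 stages of each pair called 40 predicted miRNAs, and the count over all miRNAs is not given. The step from D1 to D36 held 26 of the calls (12 higher and 14 lower, of 111 tested). Of all miRNAs tested at this step 34.4% were called, 120 higher and 56 lower. Centring on the median miRNA gave 5 higher and 64 lower (53 and 223 of all 512) for this step, whose median change was 0.98 over the 171 miRNAs of at least 10 TPM. E9 to E12 held 20 calls (10 in each direction, of 148 tested), against 12.9% of all miRNAs (27 higher and 64 lower). E5 to E7 held 15 (9 higher and 6 lower, of 154 tested), against 8.20% of all (43 higher and 20 lower). After centring 4 were higher and 19 lower at this step (20 and 62 of all). D100 to D300 held 11 (9 higher and 2 lower, of 97 tested), against 12.5% of all (30 higher and 34 lower). After centring 15 were higher and 0 lower at that step (48 and 23 of all).

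The other steps held few calls. E12 to E15 had 6 of 137 tested (4.77% of all miRNAs called) and E15 to E18 had 5 of 123 (2.82%). E18 to E20 had 1 of 120 (0.521%) and E20 to D1 had 4 of 103 (4.68%). D36 to D100 had 0 of 87 by limma (0.617% of all miRNAs), with 15 predicted miRNAs at an unadjusted p under 0.05. The fit of those 2 stages alone also had 0. In older birds D300 to Y3 had 4 of 92 (5.12%) and Y3 to Y5 had 4 of 84 (1.26%). Y5 to Y8 had 3 of 78 (0.870%) and Y8 to Y12 had 2 of 86 (1.67%).

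At E9 to E12 the called rows included new-gga-miRNA-2 (1.51, SE 0.25) and new-gga-miRNA-3 (2.10, SE 0.36), and at D1 to D36 new-gga-miRNA-6 (5.89, SE 0.37, adjusted p = 1.62e-14 by limma). new-gga-miRNA-1 rose by 1.52 at D1 to D36 without D1 replicate 1 (adjusted p = 0.0120 by limma, or 0.00305 with it), and in the fit of these 2 stages alone, with that sample, it was not called (0.331 by limma). new-gga-miRNA-189 was called lower at this step, and without D1 replicate 1 its adjusted p was 0.193 by limma. new-gga-miRNA-26 was at 0 in the 3 D1 samples and at 7.99, 8.10 and 12.0 TPM at D36.

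A row that went in and out of the list between stages, and between samples of Y8 and of Y12, was new-gga-miRNA-21. It was listed at 0 in all 24 samples before D36, then at 37.2, 44.6 and 36.7 TPM at D36, at 31.5, 15.5 and 20.7 TPM at D100 and at 26.0, 91.7 and 64.5 TPM at D300. At Y3 all 3 samples were at 0, at Y5 they were at 16.8, 16.1 and 16.8 TPM, at Y8 at 0, 2.63 and 0 TPM and at Y12 at 28.7, 0 and 0 TPM. The steps D1 to D36, D300 to Y3, Y3 to Y5 and Y5 to Y8 were each called, at adjusted p-values of 4.29e-08, 3.44e-07, 9.11e-05 and 0.00129 by limma. In the fit of only Y5 and Y8 the adjusted p was 0.0589 by limma. The fit over all stages pools its spread with stages where all 3 samples were at 0. Only the 2.63 TPM at Y8 keeps this row from those listed at 0 or at 10 TPM and over, described below.

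Over the 39 muscle samples, 34 of 185 predicted miRNAs tested fitted a curve in the order of stages, with a linear and a squared term, at an R-squared of at least 0.6, the limit the study used. Of these 8 rose and 26 fell from E9 to Y12, against 6.86% rising and 19.7% falling over all 816 miRNAs tested. The share that fitted was 18.4% of the predicted and 26.6% of all miRNAs tested. After centring on the median miRNA 15 rose and 4 fell (93 and 69 of all). The closest fits were those of new-gga-miRNA-36 (falling, R-squared 0.880), new-gga-miRNA-51 (falling, 0.833) and new-gga-miRNA-8 (rising, 0.819). new-gga-miRNA-11 reached 0.757 and new-gga-miRNA-6 reached 0.695 with a straight line, although its samples step at D36. Of the 34, 29 were also called in at least 1 muscle comparison, which uses the same samples. This overlap was not counted over all miRNAs, so it is not read as a trait of the predicted rows.

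Some rows were listed on one side of D36 only. There were 89 predicted miRNAs (43.8%) at 0 in all 21 Bir_G samples and 22 (10.8%) at 0 in all 24 earlier samples, against 32.8% and 3.20% of the known miRNAs. Of the 89, 18 were above 0 in whole embryos alone, which differ from muscle in tissue as well as age. That count was not made for the known miRNAs. Any value above 0 counts here, also one under 3 reads, and 144 predicted rows averaged under 1 TPM. Predicted rows were also rarer than known ones (median of means 0.308 against 0.450 TPM), and the part of level in these shares was not tested. In 44 of the 89, all 3 samples of at least 1 earlier stage were above 0, and in 12 of the 22 all 3 samples of at least 1 Bir_G stage were. These last counts were not made for the known miRNAs.

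Besides new-gga-miRNA-189, described below, the early rows included new-gga-miRNA-31, at 24.1, 14.0 and 10.7 TPM at E5 and 18.1, 17.6 and 25.4 TPM at E7, and at 1.73, 1.87 and 0 TPM at D1. new-gga-miRNA-33 was at 25.1, 9.39 and 17.6 TPM at E5 and was above 0 in 1 of the 3 E7 samples. new-gga-miRNA-50 and new-gga-miRNA-51 were highest at E12, at 12.3, 7.06 and 7.52 TPM and at 9.38, 10.2 and 8.28 TPM.

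Besides new-gga-miRNA-21 the postnatal rows included new-gga-miRNA-49, above 0 in 17 of 21 Bir_G samples and highest at Y8, where it was at 11.2, 1.62 and 8.59 TPM. new-gga-miRNA-53 was above 0 in 8 of the 21 samples with a highest value of 13.5 TPM. new-gga-miRNA-97 and new-gga-miRNA-199 were each above 0 in 14 of the 21 samples, at no more than 2.63 and 3.53 TPM.

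An exact 0 did not always stand beside low values. In 7 predicted and 4 known miRNAs (gga-miR-18a-5p, gga-miR-19a-3p, gga-miR-1a-3p and gga-miR-21-5p) at least 1 sample was listed at 0, at least 3 were above 0, and the lowest value above 0 was 10 TPM or more. The predicted ones were new-gga-miRNA-1, new-gga-miRNA-10, new-gga-miRNA-12, new-gga-miRNA-16, new-gga-miRNA-24, new-gga-miRNA-44 and new-gga-miRNA-189. A 0 in these rows is given as listed at 0.

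In new-gga-miRNA-10, 27 samples were at 45.5 to 473 TPM and 18 at 0. In new-gga-miRNA-189, 10 samples were at 242 to 4870 TPM and 35 at 0. The 2 rows were above 0 together in 0 of 45 samples. All 9 samples from E5 to E9 listed new-gga-miRNA-10. In the 15 samples from E12 to D1 exactly 1 of the rows was listed each time, new-gga-miRNA-10 in 5 and new-gga-miRNA-189 in 10. Samples of 1 stage differed in this, as at E12, where replicate 1 listed new-gga-miRNA-189 at 611 TPM and replicates 2 and 3 listed new-gga-miRNA-10 at 238 and 248 TPM. From D36 on new-gga-miRNA-10 was listed in 13 of 21 samples and new-gga-miRNA-189 in 0. The sequences of the rows were not analysed here, and whether they share reads was not tested.

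The highest value of new-gga-miRNA-189, 4870 TPM, was in D1 replicate 1, which listed new-gga-miRNA-1 at 0. The next highest was 715 TPM, at E18. new-gga-miRNA-16 was above 0 in 1 of 6 embryo samples, 4 of 6 Pre_E samples, 6 of 12 Lat_E samples and 1 of 21 Bir_G samples, at 20.4 to 88.9 TPM. It was called lower from Lat_E to Bir_G (adjusted p = 0.00256 by limma), but not without replicate 1 of each stage (adjusted p = 0.108 by limma). new-gga-miRNA-12 was above 0 in 11 samples at 65.7 to 244 TPM, new-gga-miRNA-24 in 6 at 11.7 to 24.2 TPM and new-gga-miRNA-44 in 3 at 13.9 to 66.2 TPM. These last rows, new-gga-miRNA-10 and the pairs of rows compared here were chosen after their values were seen.

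**Figure D5:**
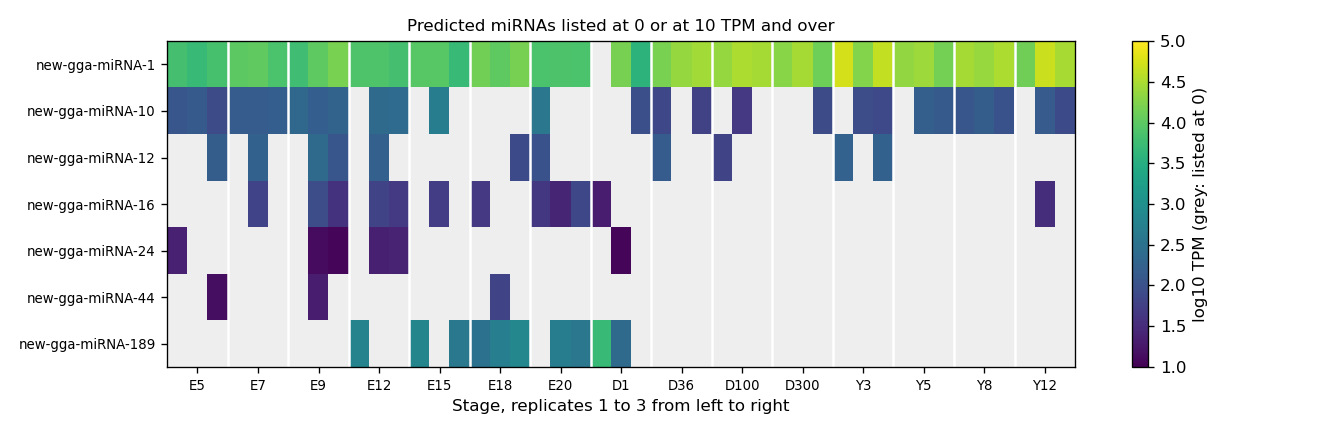
Level of the 7 predicted miRNAs that are listed either at 0 or at 10 TPM and over, as log10 TPM by colour, in the 45 samples in stage order with replicates 1 to 3 side by side; grey marks a value of 0. new-gga-miRNA-10 and new-gga-miRNA-189 are never coloured in the same sample, and from D36 on new-gga-miRNA-189 is grey throughout.

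new-gga-miRNA-15 and new-gga-miRNA-19 had nearly the same values from D36 on. Counted in the steps of each sample's values, taken as reads, they were equal in 12 of 21 Bir_G samples and differed by at most 3 in the others. At D36, for example, both were at 4.70, 5.50 and 4.95 TPM. Before D36 they were apart. new-gga-miRNA-15 was 2.34 to 3.75 times as high in the embryos and 1.21 to 2.65 times in Pre_E, and in Lat_E the ratio was 0.224 to 4.04 with a median of 1.99. The lowest ratio was D1 replicate 1, with new-gga-miRNA-19 at 166 TPM and new-gga-miRNA-15 at 37.2 TPM. Postnatal values of the 2 rows are therefore uncertain as separate measurements, and whether they share reads was not tested. 0 predicted rows were identical to another row over all 45 samples.

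The known miRNAs whose levels ran most like those of selected predicted ones over the 39 muscle samples were found by Pearson's r of log2(TPM + 1), among known miRNAs averaging 10 TPM or more. The points share the library scaling, and r is given as a description. For new-gga-miRNA-11 they were gga-miR-193a-5p (0.95) and gga-miR-146b-5p (0.93), and for new-gga-miRNA-15 gga-miR-1552-5p (0.94) and gga-miR-196-5p (0.93). new-gga-miRNA-2 ran most like gga-miR-133a-3p (0.88) and gga-miR-133a-5p (0.84), arms of a muscle miRNA hairpin. new-gga-miRNA-4 ran most like gga-miR-140-3p (0.77) and gga-miR-183 (0.76), in the other order without D1 replicate 1 (0.77 and 0.78). For new-gga-miRNA-3 (gga-miR-30c-1-3p, 0.62, and gga-miR-133a-5p, 0.60) and new-gga-miRNA-188 (gga-miR-30c-5p, 0.65, and gga-miR-499-3p, 0.56) the likeness was lower. Without D1 replicate 1 the second for new-gga-miRNA-3 was gga-miR-23b-3p (0.61). For new-gga-miRNA-1 they were gga-let-7g-5p (0.77) and gga-let-7i (0.72), and without D1 replicate 1 gga-miR-146c-5p (0.88) and gga-miR-15a (0.87) took their place.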

How the data were processed

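Reads were quality filtered, trimmed with Cutadapt and kept at 18 to 30 nt by the authors. They removed other small RNAs, took known miRNAs from miRBase 21 and predicted others with miRDeep2 (score of at least 5, predicted in at least 2 samples). Of the predicted rows, 11 were above 0 in only 1 of the 45 samples, and how these met that rule is not stated. By the methods, the prediction mapped unannotated reads to the zebra finch genome. The build and the library total are not given in the sources used here. The authors deposited values called TPM, which are RPM by their steps. Each value is a whole number of its sample's steps, taken as reads (100% within a tolerance of 0.1 reads in all 45 samples). The design assumed TPM and the same tests serve. Reads were recovered in 41 samples. In 4 (E7-2, E9-3, D100-3 and Y8-2) the step was close to 0.1 TPM, and reads could not be told from rounding. Limits of 3 reads cover counting error only.

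Groups came from the sample labels. Periods (12 against 6 samples and so on) and adjacent stages were compared with limma 3.58.1 on log2(TPM + 1) over all miRNAs of the table, and the time course by polynomial regression with backward elimination. edgeR 4.0.16 was run on recovered reads as an alternative. Others were unadjusted p, 0.1 in place of 1 as pseudocount, a filter on means under 1 TPM, centring on the median miRNA, rescaling without gga-miR-133a-3p, a trend in eBayes, stage means, the logarithm of days, fits of single pairs, the replicate number as a block, and leaving out each replicate. Leaving out D1 replicate 1 and the rows listed at 0 or at 10 TPM and over was chosen after the data were seen. Replicate pairs of a stage all differed beyond counting noise (chi-square of 125 or more for each degree of freedom). Scripts were tested on simulated data. R 4.3.3, Python 3.11.15, pandas 2.3.3, NumPy 2.4.6 and Matplotlib 3.10.9 were used.

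The members and lists were chosen with earlier results of these data known. Rows named were the 12 with the highest mean, the 4 largest rises and falls of each period comparison among called rows averaging 5 TPM or more in the higher period, the 8 largest such changes between adjacent stages, the 5 highest rows present on one side of D36 only, and numbers 11 and 15. new-gga-miRNA-36, new-gga-miRNA-43 and new-gga-miRNA-130 were named after their calls, and for new-gga-miRNA-36 its time course, were seen. The table of other tissues was not used here, because its predicted miRNAs carry other names.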

Additional observations from a re-analysis of the deposited data

Results flagged for a closer look

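Among the 61 groups of 6 samples tested (embryos and Pre_E, for the rows named), 12 held a highest sample whose gap to the next was over 0.625 of the group's range. Chance flags about 1 in 20 groups of normally distributed values, but this rate does not hold for rows with many values of 0. In Pre_E these were new-gga-miRNA-5 at 1811 TPM in E9 replicate 3 (group median 443 TPM), new-gga-miRNA-8 at 84.3 TPM in E12 replicate 1 (42.8 TPM), new-gga-miRNA-19 at 48.2 TPM in E12 replicate 1 (27.0 TPM) and new-gga-miRNA-23 at 3.63 TPM in E9 replicate 3 (1.58 TPM). In the other 8 groups only 1 of the 6 samples was above 0, which fixes the gap at the whole range. In the embryos these were new-gga-miRNA-16 at 62.7 TPM in E7 replicate 2, new-gga-miRNA-24 at 23.6 TPM in E5 replicate 1, new-gga-miRNA-26 at 1.27 TPM in E7 replicate 3, new-gga-miRNA-29 at 0.198 TPM in E7 replicate 2 and new-gga-miRNA-44 at 13.9 TPM in E5 replicate 3. In Pre_E they were new-gga-miRNA-29 at 0.174 TPM and new-gga-miRNA-189 at 611 TPM, both in E12 replicate 1, and new-gga-miRNA-44 at 19.8 TPM in E9 replicate 2.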

How the results depend on the processing

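The counts of predicted miRNAs called (25 from Pre_E to Lat_E, 34 from Lat_E to Bir_G, 58 from Pre_E to Bir_G, 15 from the embryo to Pre_E, 69 between adjacent stages, 34 with a time course) moved by over 1.5 times under some settings. A pseudocount of 0.1 gave 43, 80, 103 and 26 in the 4 comparisons of periods, and edgeR on recovered reads gave 131 from Lat_E to Bir_G and 131 from Pre_E to Bir_G. Counts over all miRNAs moved as well. From Lat_E to Bir_G edgeR called 203 higher and 282 lower of all 729 tested, against 101 and 102 of 731 by limma. Settings given without a count over all miRNAs, here and above, cannot show whether the predicted rows were more sensitive than the rest. A mean of at least 1 TPM, which leaves fewer rows to test, gave 32 from Pre_E to Bir_G, 42 between adjacent stages and 18 time courses. Centring gave 110 between adjacent stages and 19 time courses, rescaling without gga-miR-133a-3p gave 15 from Pre_E to Lat_E, and fits of only 2 stages gave 40. Stage means as units gave 5 from Pre_E to Lat_E and 0 from the embryo to Pre_E. Where not given, the cause was not tested. Leaving out 1 replicate number at a time gave 16 to 19, 35 to 38, 54 to 57, 6 to 9, 63 to 69 and 29 to 35 in the order above, and 198 to 199 of the 203 listed, of which 48 reach 10 TPM. Without D1 replicate 1 the counts were 27, 36, 69 and 38 where it enters, and without the 7 rows listed at 0 or at 10 TPM and over 23, 31, 55, 15, 66 and 34.

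With the replicate block the counts were 25, 34, 58, 15, 72 and 36. On average, samples with the same number hardly deviated together (mean r of 0.0076 against -0.0041 for different numbers). Single values of r for the same number ran from -0.63 to 0.82. In 22 of 45 samples the own number was the closest. The check therefore cannot exclude that the numbers pair some of the samples. Of 488 values of the 40 named calls under the alternatives, 62 were no longer called and 0 turned sign. The setting with stage means as units lost the most, 16 of its 32 named period calls. The 62 include new-gga-miRNA-189 from Pre_E to Lat_E with the block (adjusted p = 0.0546 by limma). Rows near 3 reads cannot be compared at this depth.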
